A study of Mus musculus with 6 samples.

Results

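Cells caught in the act of dividing made up 480 of the 102534 cells kept from 6 libraries of sorted intestinal lamina propria cells. They were chosen by the counts themselves. A cell was called cycling when at least 4 of 8 mitotic genes (Mki67, Top2a, Birc5, Cdk1, Ccnb1, Cenpf, Tpx2 and Nusap1) had 1 or more UMIs, where a UMI stands for a single captured RNA molecule. Lineage was then read from single genes. Cells with 2 or more Epcam UMIs were called epithelial, those with Prox1 lymphatic, those with Ptprc (CD45) immune, and those with Pdgfra or Pdgfrb and no Epcam stromal. Of the 480 cycling cells, 259 were stromal, 57 lymphatic, 39 immune and 11 epithelial, while 99 met the definition of several lineages and 15 met none.

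A dividing cell copies its DNA in S phase, checks the copy in G2 and separates the chromosomes in mitosis. Passage through these steps is driven by cyclins bound to cyclin-dependent kinases (CDKs) and is held back by CDK inhibitors, and the genes of S phase and of G2 and mitosis are switched on in waves, the former by E2F factors and the latter by B-MYB and FOXM1. In the adult gut the epithelium renews itself constantly from crypt stem cells, whereas fibroblasts and lymphatic endothelium of the lamina propria divide rarely and instead provide the WNT and BMP signals that position the dividing epithelium. Foxl1+ telocytes and other subepithelial myofibroblasts (SEMFs) are sources of BMPs and non-canonical WNTs, and Grem1+ trophocytes near the crypts supply R-spondin and BMP antagonists.

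The cells came from Flare-TSLP mice on the C57BL/6 background, a knock-in in which tdTomato reports transcription of the Tslp locus, and every library held live tdTomato+ cells sorted by flow cytometry from lamina propria. For the small intestine, the paper describes that the epithelium was shaken off and the Peyer's patches removed. It gives no separate preparation for cecum and large intestine. No mouse without the reporter, no treatment and no time course entered the single-cell data, and the ages and sexes of the mice were not in the labels. Proximal and distal small intestine gave 2 libraries each and cecum and large intestine 1 each, and the last 2 together are called the large bowel here. Each library pooled cells marked with 3 hashtag antibodies against H-2 and CD45. The paper used hashtags for multiplexing and reports at least 3 biological samples per small intestinal tissue, but the sources used here do not pair hashtags with mice. Each library therefore counted as 1 sample, and p-values measure the spread between libraries, which may be technical in part. In the gene by gene comparison of large bowel with small intestine, this spread came only from the replicates of the small intestine.

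The libraries held between 109675337 and 206827504 gene UMIs and between 11751 and 21299 kept cells, with a median of 6772 to 9413 UMIs per cell. Free RNA, measured in barcodes of at most 100 UMIs, took between 2.90% and 3.82% of the UMIs. Any pair of libraries shared between 38 and 118 cell barcodes, at most 0.61% of the smaller library. The second replicates of the proximal and distal small intestine carried a different set of hashtags from the other 4 libraries.

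Markers that the definitions did not use were compared with the lineage names by their level in the pooled cycling cells of a lineage, in CPM (UMIs per 1e6 UMIs of the sum), since free RNA can give single UMIs in any cell. Collagen Col3a1 was at 6799 CPM in stromal cells against 146 to 375 CPM in epithelial, lymphatic and immune cells, although it had UMIs in 36 of 39 immune cells. The lymphatic receptors Lyve1 and Flt4 were at 1213 and 672 CPM in lymphatic cells against 5.15 and 3.44 CPM in stromal cells, with UMIs in 56 of 57 and in 20 and 13 of 259 cells. Mmrn1 was at 2717 CPM (55 of 57 cells) against 12.0 CPM (37 of 259). The 11 epithelial cells carried the keratin Krt8 in 10 and E-cadherin (Cdh1) in 8, against 2 and 0 of the stromal cells, but the crypt stem cell genes Lgr5 and Olfm4 in only 2 each, and no cell had a Muc2 UMI.

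The 39 cycling immune cells were mixed. Cd52 and Coro1a were at 763 and 451 CPM against 1.96 and 1.23 CPM in cycling stromal cells. With 2 or more genes of a marker list taken as a hit, 19 cells (48.7%) carried B cell genes, 29 (74.4%) plasma cell genes, 10 (25.6%) T cell or ILC genes and 10 (25.6%) myeloid genes, and the lists could be hit together. Plasma cell genes were thus hit in 74.4% of the cycling against 42.9% of the other 1241 immune cells, whereas B cell genes were hit in 48.7% and 42.2%. Shares of cells with UMIs rise with depth, and per UMI the plasma cell list went the other way. Its summed level was 9232 and 11634 CPM in cycling immune cells of proximal replicate 2 and distal replicate 1 against 36435 and 26555 CPM in other immune cells, with a median log2 ratio of −0.51. Jchain, the joining chain of IgA and IgM, was abundant in free RNA, at 2351 CPM, and had UMIs in 17.8% of the cycling stromal cells as well. The part of free RNA in the plasma cell hits was not tested.

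Cells with the genes of several lineages were set aside. Among those 99 cells, 42 were stromal and lymphatic, 27 stromal and immune, 18 epithelial and immune, 6 stromal, lymphatic and immune, 4 epithelial and lymphatic, and 2 lymphatic and immune. The doublet caller Scrublet marked 16 of the 99 (16.2%) against 16 of the 259 stromal cells (6.18%), 2 of the 57 lymphatic cells and 1 of the 39 immune cells. Several hashtags, an independent sign of 2 cells in a droplet, were seen in 32 of the 99 (32.3%) and in 34 of the 259 stromal cells (13.1%). Among other, not cycling cells of several lineages, Scrublet marked between 19.4% and 47.2% per library, and several hashtags occurred in between 23.6% and 36.2%. Among the cycling ones, libraries ranged from 0% to 30% for Scrublet and from 0% to 42.9% for hashtags. Averaged over libraries, several hashtags occurred in 11.4% of cycling and 9.13% of other stromal cells, a difference of 2.29 percentage points that was positive in 4 of 6 libraries (exact sign-flip permutation test over libraries, two-sided, p = 0.344, adjusted p = 0.563). The test did not detect a difference, with libraries ranging widely around it (SD 4.84 points).

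**Figure D1:**
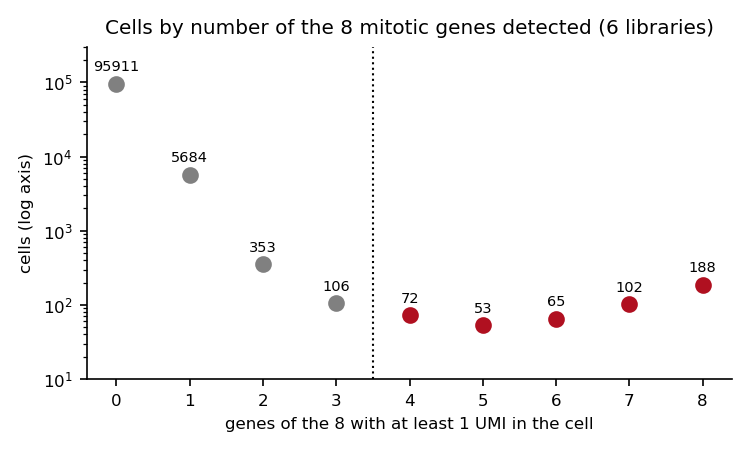
Number of cells (vertical, log axis) by how many of the 8 mitotic genes had at least 1 UMI (horizontal), all 6 libraries together, with the threshold as a dotted line and cycling cells in red. From 3 genes on the counts stay between 53 and 188 cells, and the 188 cells with all 8 genes form the largest class above the threshold.

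The threshold did not fall into a deep gap. As the plot of cells by number of mitotic genes shows, none of the genes was seen in 95911 cells, 1 in 5684, 2 in 353, 3 in 106, 4 in 72, 5 in 53, 6 in 65, 7 in 102 and all 8 in 188. Just outside the threshold, cells with 3 of the genes held a median of 5 UMIs of these genes and 12831.5 UMIs in all, and 60.4% of them had Mki67. Just inside, cells with 4 held a median of 8 such UMIs and 14351 in all, and 80.6% had Mki67, while cells with all 8 held a median of 84 and 16937.5. Cycling cells were deeper than the rest of their lineage. In stromal cells the median was 16997, 16765, 12580, 15098, 12180 and 17630 UMIs per cycling cell in proximal replicates 1 and 2, distal replicates 1 and 2, the cecum and the large intestine, against 8570, 9931, 7784, 9016, 6845.5 and 9433.5 in other cells. Since deeper cells meet the rule more easily, shares were computed again with each cell thinned to 2500 UMIs for the count of the 8 genes. The lineage, and with it the choice of cells set aside, was still read from all UMIs, so depth could still act there.

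The 8 genes that chose the cells span S phase to mitosis. Top2a untangles the copied DNA, Cdk1 and its partner Ccnb1 start mitosis, Birc5 (survivin) belongs to the chromosomal passenger complex, Tpx2 and Nusap1 organize spindle microtubules, Cenpf sits at kinetochores, and Mki67 coats mitotic chromosomes. Their promoters are shown because genes of this class are known to be activated by NF-Y through CCAAT boxes and repressed in resting cells by the DREAM complex through cell cycle homology regions (CHR), short elements close to the start site. The sequences are the 250 bases before the RefSeq start site (GRCm38.p6), written 5′ to 3′ on the strand of the gene. Capitals mark CCAAT, which reads ATTGG when it lies on the opposite strand, and the CHR core TTTGAA, which then reads TTCAAA. The windows are chr11:99024190-99024439 for Top2a, chr10:69352913-69353162 for Cdk1, chr7:135716380-135716629 for Mki67 and chr13:100786487-100786736 for Ccnb1, all on the minus strand.
Top2a: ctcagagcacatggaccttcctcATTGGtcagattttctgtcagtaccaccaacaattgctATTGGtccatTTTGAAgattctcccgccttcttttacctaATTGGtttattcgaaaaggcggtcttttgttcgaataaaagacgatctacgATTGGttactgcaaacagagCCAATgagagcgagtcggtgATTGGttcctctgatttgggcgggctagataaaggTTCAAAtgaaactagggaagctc
Cdk1: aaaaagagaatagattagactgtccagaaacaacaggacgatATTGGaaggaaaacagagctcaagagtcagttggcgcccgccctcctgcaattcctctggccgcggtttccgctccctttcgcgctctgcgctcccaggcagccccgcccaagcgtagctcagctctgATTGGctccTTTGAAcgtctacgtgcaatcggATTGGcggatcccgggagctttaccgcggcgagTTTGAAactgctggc
Mki67: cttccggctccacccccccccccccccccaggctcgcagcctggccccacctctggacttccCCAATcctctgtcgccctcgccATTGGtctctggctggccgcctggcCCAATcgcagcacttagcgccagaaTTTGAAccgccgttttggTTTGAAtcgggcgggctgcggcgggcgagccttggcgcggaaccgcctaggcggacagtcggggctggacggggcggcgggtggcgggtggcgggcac
Ccnb1: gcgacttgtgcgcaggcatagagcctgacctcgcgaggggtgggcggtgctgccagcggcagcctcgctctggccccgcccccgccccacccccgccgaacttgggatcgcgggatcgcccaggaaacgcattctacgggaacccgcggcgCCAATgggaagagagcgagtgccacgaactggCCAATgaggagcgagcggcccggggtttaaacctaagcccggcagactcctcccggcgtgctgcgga

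The Top2a window held 6 CCAAT boxes and 2 CHR cores, those of Cdk1 and Mki67 held 3 and 2 each, and that of Ccnb1 held 2 CCAAT boxes and no CHR core. Searched on both strands, and with a shared base allowed between motifs, Cenpf had 2 CCAAT boxes and no CHR core, and Birc5 and Nusap1 had neither in this window. Tpx2 had no window in the table. Over all 32851 windows of the same length, 33.8% held a CCAAT box, 16.0% a CHR core and 5.55% both. A match is a run of letters and no proof of a working site.

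Cycling cells were rare among stromal and lymphatic cells. Among stromal cells they made up 0.204% and 0.113% in proximal replicates 1 and 2, 0.200% and 0.227% in distal replicates 1 and 2, and 0.566% and 0.892% in cecum and large intestine. The 95% exact binomial intervals, which cover counting error only, ran from 0.132% to 0.301%, 0.0567% to 0.203%, 0.141% to 0.275%, 0.146% to 0.338%, 0.443% to 0.714% and 0.718% to 1.09% in the same order. All 4 small intestinal libraries thus lay below the cecum and the large intestine.

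Lymphatic cells reached 0.794%, 0.178%, 0.975%, 0.348%, 0.472% and 1.19% in that order of libraries, from 18, 9, 7, 19, 1 and 3 cells. The proximal replicates were at 0.794% and 0.178% and the distal ones at 0.975% and 0.348%, so the ranges of these regions overlapped. Immune cells, few in number after a sort for the reporter, reached 1.79%, 2.79%, 4.98%, 2.23%, 5.77% and 2.38%, from 5, 10, 14, 5, 3 and 2 cells. No immune cell, cycling or other, had a tdTomato UMI. By flow cytometry, the paper found reporter-positive CD45+ cells to be rare and confined to CD31+ endothelial cells. How the immune cells came into the sort was not tested.

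Epithelial cells were almost absent from the sort, with between 3 and 55 cells per library. Of these, 2 of 23 and 1 of 14 were cycling in the proximal replicates and 0 of 19 and 0 of 12 in the distal ones. In the large bowel 1 of 3 were cycling in cecum and 7 of 55 in large intestine. The 2 counts of 0 allow shares of up to 15.8% and 25.0%. Both large bowel shares lay above the small intestinal ones (exact permutation p = 0.133, adjusted p = 0.533), but after thinning the large bowel mean was below the small intestinal one.

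**Figure D2:**
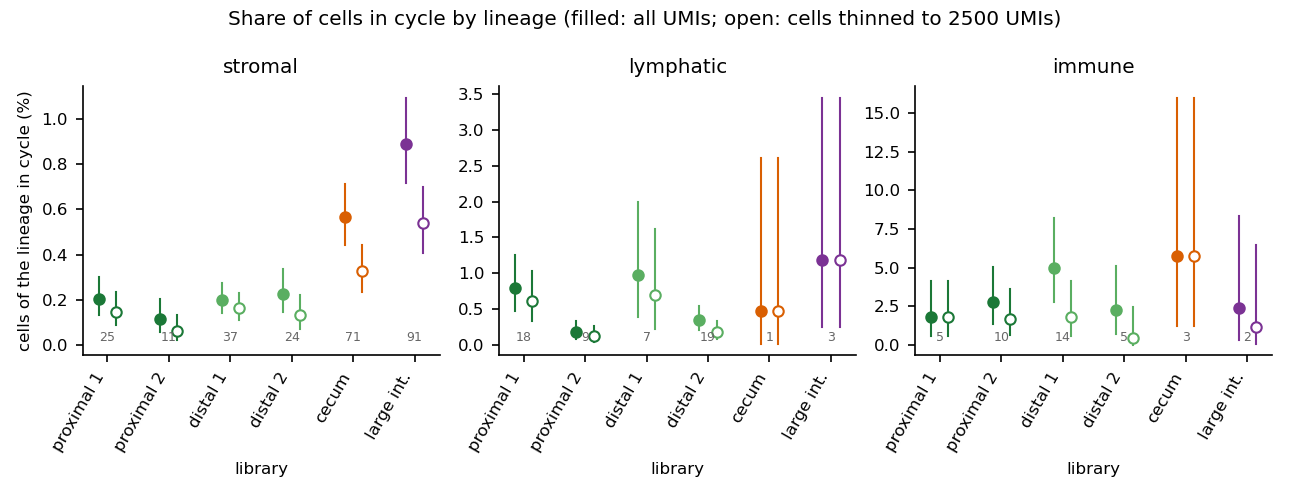
Share of the cells of a lineage in cycle (vertical, percent) in each library (horizontal), for stromal, lymphatic and immune cells, with each panel on its own axis. Filled points use all UMIs, open points cells thinned to 2500 UMIs, bars are 95% exact binomial intervals and the small numbers are cycling cells. Stromal shares are highest in the cecum and the large intestine, at 0.566% and 0.892%, and immune shares stand above stromal ones in each library.

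Immune cells were in cycle more often than stromal cells in 6 of 6 libraries, at 3.32% ± 1.64 against 0.367% ± 0.301 (SD, n = 6 libraries). The exact sign-flip permutation test over libraries gave p = 0.03125, two-sided, the smallest value that 6 libraries allow, and an adjusted p of 0.0938 over the 3 comparisons with stromal cells. Lymphatic cells, at 0.660% ± 0.391 (SD, n = 6 libraries), were above stromal cells in 5 of 6 libraries (exact permutation p = 0.0938, adjusted p = 0.141). In the cells thinned to 2500 UMIs, immune cells reached 2.11% ± 1.87, lymphatic cells 0.546% ± 0.391 and stromal cells 0.228% ± 0.176. The adjusted exact permutation p was 0.0469 for both comparisons. In the order of libraries above, the thinned shares rest on 5, 6, 5, 1, 3 and 1 immune and 14, 6, 5, 10, 1 and 3 lymphatic cells. In the cecum, where lymphatic cells had been below stromal cells, the order turned on a single cell. This 1 cycling lymphatic cell of 212 stayed (0.472%), while stromal cells fell from 0.566% to 0.327%. In the 2 libraries with at least 20 epithelial cells, 10.7% of these were in cycle against 0.548% of stromal cells, for which the exact permutation test cannot go below p = 0.5.

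Between regions, the cycling share of stromal cells was 0.729% ± 0.230 in the large bowel (SD, n = 2 libraries) and 0.186% ± 0.0499 in the small intestine (n = 4), a difference of 0.543 percentage points with no overlap between the groups. The exact permutation test gave p = 0.133, two-sided, which is the smallest that 2 against 4 libraries can reach, and an adjusted p of 0.533 over the 8 comparisons of regions. After thinning to 2500 UMIs the same order held, with 0.147%, 0.0619%, 0.162% and 0.132% in the small intestine against 0.327% and 0.539% in cecum and large intestine. Within the 4 libraries that carried the same hashtags, the shares were 0.204% and 0.200% in the small intestine against 0.566% and 0.892%. Split by hashtag, small intestinal stromal cells were in cycle at between 0.0263% and 0.507%, and large bowel stromal cells at between 0.406% and 1.14%, so the ranges over hashtags overlapped. Cells meeting several lineages, which were left out, made up 88 of 283 cycling cells (31.1%) in the small intestine. In the large bowel they made up 11 of 197 (5.58%). Over all cells of every kind, the mean cycling share was 0.783% in the large bowel and 0.368% in the small intestine. The weight of the left-out cells in the stromal difference was not tested.

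The libraries of the compared groups overlapped in the remaining stromal, lymphatic and immune comparisons of regions. Distal and proximal stromal shares were 0.213% ± 0.0194 and 0.159% ± 0.0642 (SD, n = 2 each; exact permutation p = 0.667, smallest possible 0.333). Lymphatic shares were 0.831% ± 0.508 in the large bowel and 0.574% ± 0.373 in the small intestine (exact permutation p = 0.533), and immune shares 4.08% ± 2.40 and 2.95% ± 1.42 (exact permutation p = 0.4), from 4 lymphatic and 5 immune cycling cells in the large bowel.

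The balance of S phase and G2/M transcripts was compared between stromal, lymphatic and immune cycling cells. The rule asks for mitotic genes, so it sets part of this balance in each lineage, even with these genes left out of the sums. The log2 ratio of summed UMIs of 43 S phase genes over those of 47 G2/M genes, the 8 selecting genes left out, was −1.20, −1.26, −1.75, −1.30, −1.16 and −0.93 in stromal cells in the order of libraries above. In the 4 small intestinal libraries, which had at least 5 cells of each lineage, stromal cells were 0.22 above lymphatic cells (exact permutation p = 0.75) and 0.15 below immune cells (exact permutation p = 1). The smallest p that 4 libraries allow is 0.125, so no difference could have passed the threshold, and the single differences scattered with an SD of 0.62 and 0.95.

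The next values compare cycling with other cells of a lineage, the contrast that the definition itself made, and are a description without a test. In stromal cells, 403 of 16168 genes (2.49%) were at least 2-fold higher in the cycling cells of every library and 49 (0.303%) at least 2-fold lower. Without the large intestine, 115 were lower. By function, 37 of 43 measured S phase genes were higher, 12 of 14 replication licensing genes, all 6 nucleotide synthesis genes, 41 of 44 G2/M genes, all 11 spindle checkpoint genes, all 8 kinesins and 6 of 8 condensin and cohesin genes. Median log2 ratios were 2.18 for the S phase list, 3.47 for the G2/M list and 3.89 for the kinesins, against −0.03 over all genes.

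Outside these lists, Stmn1 (stathmin), which destabilizes microtubules, was at 1510, 1467, 2000, 1356, 1554 and 1593 CPM in cycling stromal cells in the order of libraries above, against 6.03 to 11.1 CPM in other stromal cells. The cytokinesis genes Prc1, Diaph3 and Racgap1, the kinetochore scaffold Knl1, the replication clamp partner Pclaf, the glycosylase Neil3, the linker histone H1f5, the spindle gene Aspm and D17H6S56E-5 followed, with median log2 ratios of 4.63 to 5.88. All 10 were higher in 6 of 6 libraries.

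**Figure D3:**
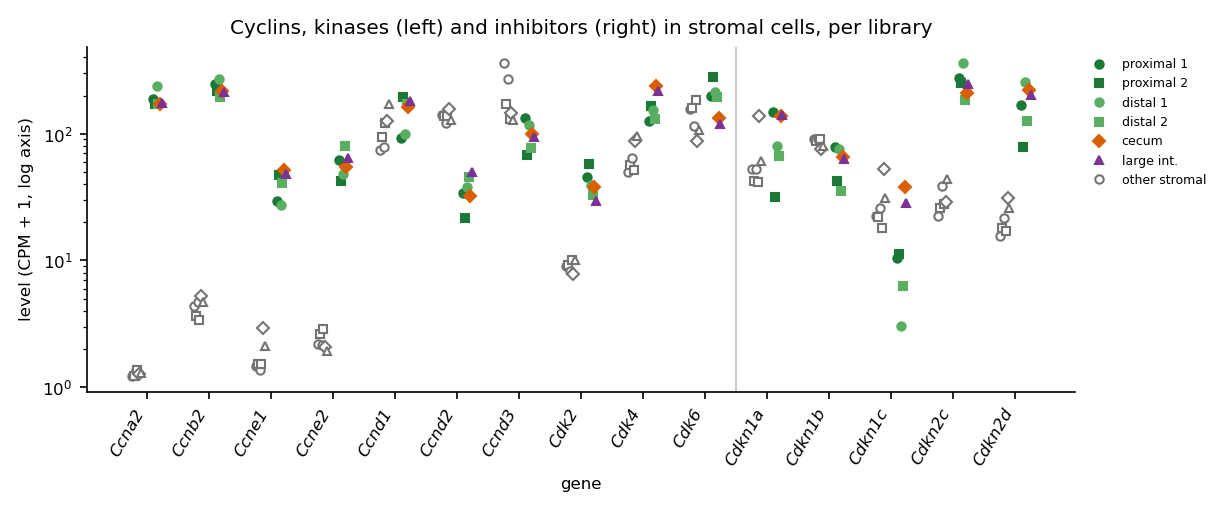
Levels (vertical, CPM + 1 on a log axis) of cyclins and CDKs and of CDK inhibitors (horizontal) in stromal cells, with 1 point per library, colored for cycling cells and open grey for other cells. Cyclins A, B and E and Cdkn2c and Cdkn2d stand far above the other cells, Ccnd2 stands below them in each library, and the remaining D cyclins and Cdkn1b overlap.

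Cyclins and their inhibitors were not all higher. Of 10 cyclins and CDKs other than those of the rule, 6 were higher in every library and 1, the D-type cyclin Ccnd2, was lower. Over all genes, 2.49% were higher and 0.303% lower. Ccnd2, which couples growth signals to cycle entry, was at 32.9, 20.6, 36.7, 44.8, 31.4 and 49.0 CPM in cycling stromal cells and at 138, 136, 121, 137, 155 and 127 CPM in other stromal cells. No library overlapped. In lymphatic cells, Ccnd2 was at 218 CPM in cycling cells of all libraries pooled and 419 CPM in other cells, while in immune cells it was at 163 and 156 CPM. Of 7 CDK inhibitors, Cdkn2c (p18) and Cdkn2d (p19), which block CDK4 and CDK6, were higher in each library. Cdkn2c stood at 273, 252, 363, 185, 209 and 244 CPM in cycling stromal cells against 21.6 to 43.3 CPM in others. Cdkn1b (p27) was at 62.3 CPM in cycling and 86.0 CPM in other stromal cells, pooled, but the pools differ in regions and the libraries of both states overlapped. The plot of cyclins and inhibitors gives these levels per library.

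Genes lower in cycling stromal cells included matrix and signaling genes. Stromal cells were a mixture of fibroblast types, so a lower level and a smaller part of a type cannot be told apart. Grem1, the BMP antagonist of trophocytes, stood at 35.3, 20.6, 99.8, 31.7, 1.12 and 21.3 CPM in cycling cells and at 649, 689, 672, 483, 55.6 and 157 CPM in others. Eln (elastin) ranged from 108 to 178 CPM against 372 to 619 CPM, Mfap4, a microfibril protein, from 49.4 to 146 CPM against 302 to 556 CPM, and Mgp, the matrix Gla protein, from 134 to 1086 CPM against 1779 to 5260 CPM. Thrb, a thyroid hormone receptor, the potassium channel Kcnn3, the synaptic genes Nlgn1 and Grm7, the protease Adamts17 and Pid1 made up the rest of the 10 lowest, each lower in 6 of 6 libraries. Of 11 telocyte genes none, and of 6 trophocyte genes only Grem1, was 2-fold different in the same direction in every library. By this measure 2.49% of all genes were higher and 0.303% lower, so short lists would hold few such genes in any case. The median log2 ratio was 0.26 for the telocyte and −1.81 for the trophocyte list. In its clustering of the small intestinal cells, the paper names a subset of proliferative telocytes marked by Mki67. It describes their signature as similar to that of SEMFs. The cells chosen here were not matched with that subset.

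Foxl1, the transcription factor of telocytes, had UMIs in between 5.41% (distal replicate 1) and 39.6% (large intestine) of the cycling stromal cells of a library, 72 of 259 in all. The pooled share in other stromal cells was 4.80%, but the 2 pools differ in regions, as 162 of the 259 cycling cells came from the large bowel, where Foxl1 was highest. Per UMI, Foxl1 was at 21.2, 10.3, 6.11, 18.5, 29.2 and 34.8 CPM in cycling stromal cells in the order of libraries above, higher in each library than the 0.665 to 31.1 CPM of its own other stromal cells. Foxl1 UMIs were found in 0 of 39 cycling immune and 2 of 57 cycling lymphatic cells, counts too small to compare for a transcript this sparse. The immediate early genes, which respond to tissue dissociation, had a median log2 ratio of −1.20, with summed levels of 2182 to 7409 CPM in cycling and 5231 to 19638 CPM in other stromal cells. Their part in the differences was not tested.

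Lymphatic cells could be described in proximal replicate 1 and distal replicate 2, the libraries with at least 10 cycling cells. There 433 of 12944 genes (3.35%) were at least 2-fold higher and 76 (0.587%) at least 2-fold lower in both libraries. Against other cells matched on UMIs, 132 were lower, and 58 of the 76 were among them. Stmn1, at 2091 and 1381 CPM against 11.4 and 8.61 CPM, again led the genes outside the cell cycle lists. Sdk1, an adhesion molecule, was at 626 and 575 CPM in cycling and 12.6 and 19.2 CPM in other lymphatic cells. None of the 9 lymphatic markers was 2-fold different in both. Lower genes included Slfn5, at 12.0 and 73.3 CPM against 245 and 262 CPM, the protease Pappa, at 12.0 and 11.0 CPM against 142 and 96.3 CPM, and the kinase Bmx, at 0 and 3.66 CPM against 37.9 and 43.0 CPM. The transcripts Jchain, Igha and Igkc were also lower, with median log2 ratios of −2.33, −1.84 and −1.84. They belong to plasma cells and were in the free RNA.

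Immune cells could be described in proximal replicate 2 and distal replicate 1, where 414 of 9083 genes (4.56%) were at least 2-fold higher and 292 (3.21%) lower in both. Pclaf, at 459 and 539 CPM against 0.614 and 3.65 CPM, was highest outside the lists, followed by Stmn1 and the histone genes H1f5, H2ac8 and H2ax. The lower genes included the T cell chemokine Ccl5, at 0 and 4.73 CPM against 420 and 386 CPM, the light chain gene Iglc1 and the ILC3 cytokine Il22, at 0 and 14.2 CPM against 93.6 and 273 CPM. Since the immune cells were a mixture of types, a lower level and a smaller part of a type cannot be told apart.

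The lists of the lineages were then set side by side. Stromal and lymphatic lists had 316 higher genes in common, 78.4% of the stromal and 73.0% of the lymphatic list, and stromal and immune lists had 186, or 46.2% and 44.9%. All 3 lineages shared 168 higher genes, of which 71 were in the cell cycle lists and 97 were not, and 0 lower genes. Among the 10 highest genes outside the lists, Stmn1, Diaph3, Prc1, Pclaf and Knl1 were common to all 3 lineages. The lists rest on 6, 2 and 2 libraries and on filters of low counts that differ in reach, and genes are not independent, so the overlaps were not tested. Of the 329 genes higher in cycling stromal cells that had a promoter window, 62.6% held a CCAAT box, 28.9% a CHR core and 22.5% both. Of the 36 lower genes with a window, 52.8%, 8.33% and 5.56% did. Of the 145 of the 168 shared genes with a window, 69.0%, 34.5% and 26.9% did. Counted in the same way, by gene over all of its windows, the shares were 37.5%, 18.3% and 7.34% of all 27025 genes with a window.

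Transcripts of the reporter were sparse. tdTomato had UMIs in 19 of 259 cycling stromal cells (7.34%, 95% exact binomial interval 4.47 to 11.2) and in 3.42% of other stromal cells, and in 5 of 57 cycling lymphatic cells (8.77%, 2.91 to 19.3) against 1.20% of the others. Per UMI, tdTomato was at 4.70, 10.3, 12.2 and 5.28 CPM in cycling stromal cells of the small intestine against 3.13, 1.46, 5.83 and 2.29 CPM in others, but at 1.12 and 4.72 CPM against 6.96 and 5.04 CPM in cecum and large intestine. The cycling cells were thus higher in the 4 small intestinal and lower in both large bowel libraries, from 1 to 7 cells with a UMI in each. Tslp, an alarmin cytokine and the gene that carries the reporter, was found in 11 cycling stromal cells (4.25%) and in 1106 of 73520 others. Neither tdTomato nor Tslp was seen in the 39 cycling immune cells, which allows up to 7.69% of cells, and tdTomato was seen in 0 of the 1241 other immune cells, which allows up to 0.242%. These limits hold for cells with a UMI, not for cells that carry the reporter, since few of the sorted stromal cells had a UMI either. Cycling cells had more UMIs than others, which raises any share of cells with a UMI.

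Sums over the cycling stromal cells allowed regions to be compared gene by gene. The sums held 425251, 194300, 490998, 379129, 891374 and 1693820 UMIs in the order of libraries above, from 25, 11, 37, 24, 71 and 91 cells, and 9162 genes passed the filter on low counts. Few genes were called between distal and proximal cells, with 2 libraries on each side. The chemokine Cxcl9, which interferon-γ induces, was the only gene called, at an adjusted p of 0.000261 by edgeR's quasi-likelihood test, or 1 of 9162 genes (0.0109%), and 368 genes had an unadjusted p under 0.05. Cxcl9 was at 21.2 and 36.0 CPM in the proximal replicates and 766 and 338 CPM in the distal ones (log2 difference 4.43 ± 0.48, SE). It was at 69.6 CPM in the cecum and 647 CPM in the large intestine, so the proximal libraries were the lowest.

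The Cxcl9 UMIs were concentrated in few cells. In distal replicate 1 a single cell held 135 of 376 UMIs and 16 of 37 cells had any, and in distal replicate 2 a single cell held 78 of 128 UMIs and 6 of 24 had any. In other stromal cells Cxcl9 ranged from 68.8 to 125 CPM in the small intestine. The call was absent when proximal replicate 2 was left out, where 0 genes were called by edgeR and 307 had an unadjusted p under 0.05. There were 31 calls without distal replicate 1, 52 without distal replicate 2 and 57 without a filter on low counts.

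Large bowel and small intestinal cells differed widely. edgeR's quasi-likelihood test called 777 of 9162 genes (8.48%), 403 higher (4.40%) and 374 lower (4.08%) in the large bowel. Its p-values took their spread from the small intestinal replicates and none from the large bowel, where each region had 1 library. The count rested in part on single libraries. It was 214 without proximal replicate 2, 360 without the large intestine, 447 without the cecum, 461 without proximal replicate 1 and 232 within the libraries that shared hashtags, and 242 with DESeq2.

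**Figure D4:**
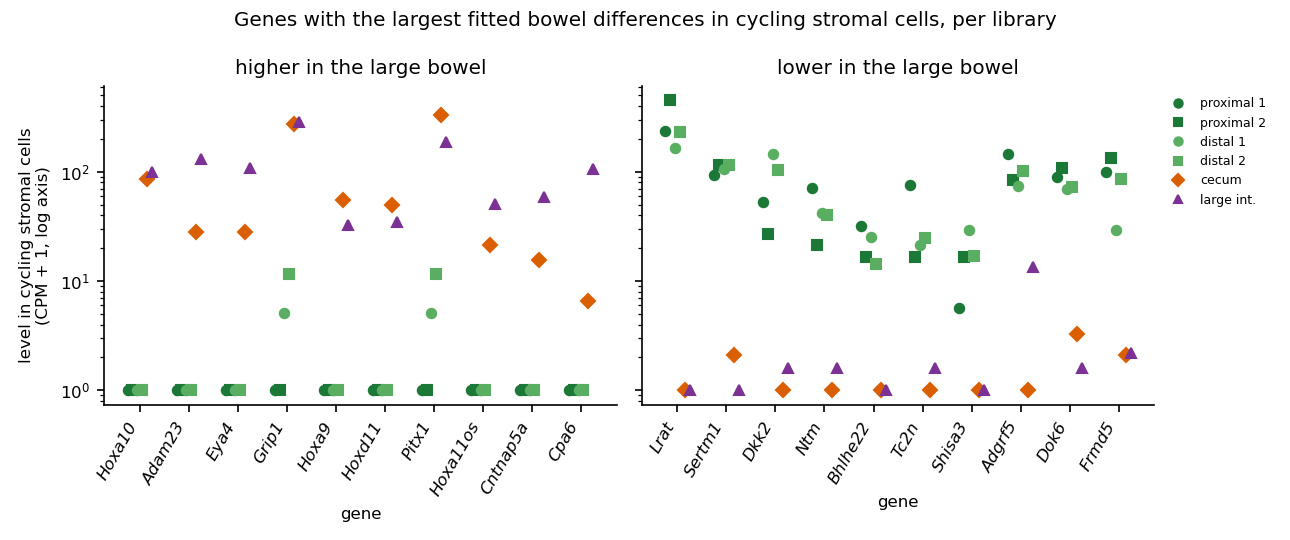
Levels in cycling stromal cells (vertical, CPM + 1 on a log axis) of the genes with the largest fitted differences between large bowel and small intestine (horizontal), 1 point per library. In the left panel the small intestinal points lie at 1, which stands for 0 CPM, other than those of Grip1 and Pitx1 in the distal libraries (4.07 and 10.6 CPM for both), and in the right panel the cecum and the large intestine lie below all 4 small intestinal libraries.

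The genes with the largest rises in the large bowel included position genes of the posterior gut. Hoxa10 was at 0 CPM in all 4 small intestinal libraries, 85.3 CPM in the cecum and 98.0 CPM in the large intestine, at least 46.5-fold higher by the floor of 3 counts over the small intestinal sums. Its neighbors Hoxa9 (at least 19.4-fold) and Hoxa11os (at least 19.6-fold), and Hoxd11 (at least 19.2-fold), followed the same pattern. All 4 were found in no cycling stromal cell of the small intestine. Hoxa10 UMIs were spread over 44 of 71 cells in the cecum and 69 of 91 in the large intestine. The homeobox gene Pitx1 was at 0, 0, 4.07 and 10.6 CPM in the small intestine, 328 CPM in the cecum and 185 CPM in the large intestine. The scaffold protein Grip1 was at the same levels in the small intestine, 273 CPM in the cecum and 284 CPM in the large intestine. For both, the small intestinal levels rest on 6 UMIs, 4 of them in distal replicate 2, so no fold is given. Adam23, a cell surface protein without protease activity (at least 46.5-fold), the transcriptional coactivator Eya4 (at least 39.8-fold), the carboxypeptidase Cpa6 (at least 35.2-fold) and Cntnap5a (at least 21.3-fold) completed the list. The bounds of these genes rest mostly on the large intestine. Cpa6 was at 5.61 CPM in cecum, from 5 UMIs of which 4 lay in 1 cell, and at 105 CPM in large intestine, and Cntnap5a was at 14.6 and 57.9 CPM. Adam23, at 26.9 and 129 CPM, was not called without the large intestine, and neither was Eya4 (edgeR adjusted p = 0.0556 for both). Adam23 and Cntnap5a were not called within 1 hashtag set (edgeR adjusted p = 0.0563 and 0.0681). Adjusted p by edgeR was between 2.49e-08 for Grip1 and 0.000733 for Cpa6.

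Among the genes that fell, the largest fitted change was that of Lrat, the enzyme that stores retinol as esters, with a size that depends on the prior count. Lrat was at 233, 448, 163 and 232 CPM in the small intestine and at 0 CPM in both large bowel libraries, at least 205-fold lower (edgeR adjusted p = 2.63e-08). The WNT antagonist Dkk2 was at 51.7, 25.7, 145 and 103 CPM in the small intestine, and at 0 and 0.590 CPM in cecum and large intestine. That last value was a single UMI, and the pooled ratio was 238-fold with a 95% counting interval of 42.0 to 9458. Sertm1 was 269-fold lower (47.6 to 10692), again against a single UMI. Ntm and Tc2n (1 UMI each in the large bowel), Dok6 and Frmd5 (3 each), Bhlhe22 and Shisa3 (0 each) and the adhesion receptor Adgrf5 made up the rest. Adgrf5 was at 143, 82.3, 73.3 and 100.2 CPM in the small intestine, 0 CPM in the cecum and 12.4 CPM in the large intestine, where 10 of 21 UMIs lay in 1 cell. Its fitted log2 difference was −6.01, and −2.93 without the cecum and −8.54 without the large intestine, with the call kept in all 14 alternatives. Shisa3 was close to the threshold (edgeR adjusted p = 0.0483) and was called in 5 of 11 alternatives, and Bhlhe22 (edgeR adjusted p = 0.00826) in 11 of 14.

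**Figure D5:**
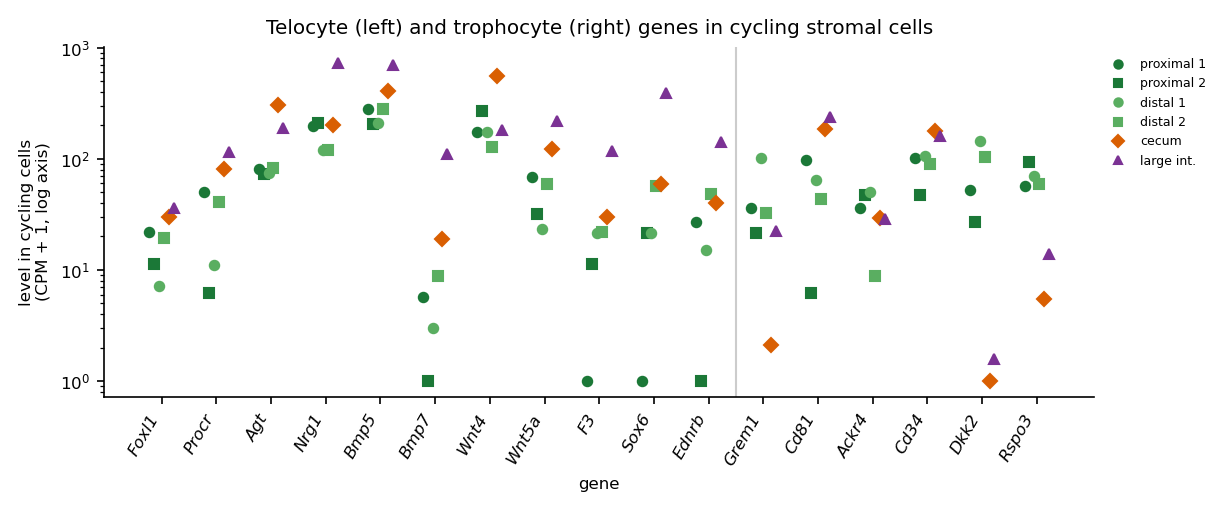
Levels in cycling stromal cells (vertical, CPM + 1 on a log axis) of 11 telocyte and 6 trophocyte genes (horizontal), 1 point per library. Most telocyte genes are highest in the cecum and the large intestine, while Dkk2 and Rspo3 are lowest there.

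Of 11 telocyte genes, 10 rose and none fell in cycling stromal cells of the large bowel, with a median log2 difference of 1.79 against −0.02 over all genes, of which 4.40% were called higher. Agt, angiotensinogen, was at 80.0, 72.1, 73.3 and 81.8 CPM in the small intestine and at 304 and 187 CPM in the cecum and the large intestine (log2 difference 1.70 ± 0.24, SE, edgeR adjusted p = 0.000117), with no overlap. The BMP ligand Bmp7 was at 4.70, 0, 2.04 and 7.91 CPM against 17.9 and 110 CPM (3.54 ± 0.54, edgeR adjusted p = 0.000248). Sox6, a transcription factor, was at 0, 20.6, 20.4 and 55.4 CPM against 58.3 and 391 CPM (3.33 ± 0.46, edgeR adjusted p = 8.99e-05).

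The non-canonical ligand Wnt5a, Bmp5, Procr (CD201), the tissue factor F3, the growth factor Nrg1, Wnt4 and the endothelin receptor Ednrb were the others that rose. For Nrg1, Wnt4 and Ednrb the libraries overlapped, and Wnt4 was high in the cecum, at 558 CPM, but at 181 CPM in the large intestine within the range of the small intestine. Foxl1 itself was at 21.2, 10.3, 6.11 and 18.5 CPM against 29.2 and 34.8 CPM and did not pass (edgeR adjusted p = 0.118). The count of 10 was 3 of 10 tested without the large intestine, 5 without proximal replicate 2, 5 with DESeq2 and 1 within the libraries that shared hashtags, with medians of 1.49 to 2.30 in all 15 fits.

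Trophocyte genes split. Dkk2 fell, as given above, and so did the R-spondin Rspo3, which amplifies WNT signals, at 56.4, 92.6, 69.2 and 58.0 CPM in the small intestine against 4.49 and 13.0 CPM in the cecum and the large intestine (log2 difference −3.03 ± 0.40, SE, edgeR adjusted p = 5.29e-05). Both were called in all 15 fits. Grem1 was at 46.8 ± 35.9 CPM (SD, n = 4) against 1.12 and 21.3 CPM and was called, but its libraries overlapped and 7 of the 15 fits did not call it. The tetraspanin Cd81 and the sialomucin Cd34 rose, Cd81 from 51.7 ± 38.2 CPM (SD, n = 4) to 185 and 236 CPM and Cd34 from 85.2 ± 26.7 CPM to 177 and 160 CPM. Cd34 was not called in 5 of the 15 fits and Cd81 in 1. Ackr4, a chemokine scavenger, did not pass, at 34.6 ± 18.7 CPM against 28.0 and 27.7 CPM.

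Of 15 WNT and BMP genes tested, a list that shares members with the former lists, 6 rose and 4 fell, where 4.40% and 4.08% of all genes did. Bmp2 rose from 35.9 ± 7.77 CPM (SD, n = 4) to 77.4 CPM in the cecum and 207 CPM in the large intestine, and Bmp3, at 0 CPM in the small intestine, was at 7.85 and 40.1 CPM. The WNT antagonist Sfrp1 fell from 822 ± 116 CPM to 322 and 171 CPM (log2 difference −1.73 ± 0.25, SE, edgeR adjusted p = 0.000166). Bmp4 was at 337 ± 52.4 CPM against 359 and 443 CPM and did not pass. Of 7 general stromal genes, Col1a1, Col1a2, Col3a1 and Lum rose and Pdgfrb fell, read against the same shares. As Pdgfra or Pdgfrb was needed to call a cell stromal, the last is a difference in a gene that chose the cells.

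Few cell cycle genes outside the rule were called, where 4.40% of all genes rose and 4.08% fell. The 8 rule genes chose the cells compared, so no test is given for them, and Mki67 was at 609, 499, 648 and 609 CPM in the small intestine and 450 and 441 CPM in the large bowel. Of 43 S phase genes, 1 rose, the ribonucleotide reductase subunit Rrm2, at 134, 72.1, 128 and 111 CPM against 204 and 233 CPM (log2 difference 1.00 ± 0.26, SE, edgeR adjusted p = 0.0186). Of 47 G2/M genes, 2 fell, the kinesin of the cytokinetic bridge Kif23 (252, 288, 354 and 258 CPM against 130 and 169 CPM, edgeR adjusted p = 0.0406) and the ubiquitin ligase G2e3. E2f1 and the CDK inhibitor Cdkn1c (p57) rose, the latter from 6.75 ± 3.83 CPM to 37.0 and 27.2 CPM. These calls were close to the threshold, and those of Rrm2, Kif23, E2f1 and Cdkn1c were lost in 4, 9, 8 and 5 of 15 fits.

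Genes of other cells moved with the regions. The summed level of 6 blood endothelial genes in cycling stromal cells was 863, 160, 136 and 229 CPM in the small intestine and 56.1 and 96.2 CPM in the large bowel, and 3 of the 6 fell (Plvap, Kdr and Emcn), where 4.08% of all genes did. Proximal replicate 1 was the highest. There the top cell for Plvap held 40 of 123 UMIs, and the top cell for each of the other 5 genes held between 56.4% and 64.8%. Whether these were the same cell was not examined. Plvap was widely spread, with UMIs in 14 of 25, 7 of 11, 20 of 37 and 11 of 24 cycling stromal cells of the small intestinal libraries. Kdr and Emcn were each found in only 1 to 3 cells per small intestinal library. Single members of other lists fell too, namely the lymphatic marker Mmrn1 (1 of 6 tested), the plasma cell gene Jchain (1 of 3), the pericyte gene Cspg4 (1 of 6) and the lamina propria fibroblast gene Fgfr2 (1 of 2). Thy1, the only T cell gene tested and also known in fibroblasts, the universal fibroblast genes Ly6c1 and Ly6a (2 of 3 tested) and the smooth muscle actin Acta2 (1 of 4) rose, the Ly6 genes with log2 differences of 2.96 and 1.87. The 10 general epithelial markers and the markers of B cells and myeloid cells were too low to be tested. Of 7 immediate early genes 4 rose, where 4.40% of all genes did, with a summed level of 2182 to 2951 CPM in the small intestine against 7409 CPM in the cecum and 3303 CPM in the large intestine. Without the cecum, without proximal replicate 2 and within the libraries that shared hashtags, 0 of the 7 rose by edgeR, with medians of 0.40 to 1.15. The part of these cells and genes in the regional differences was not tested. Fewer cells of a type and less RNA per cell cannot be told apart in sums.

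The same regions were then compared in other stromal cells. Hoxa10 was at 0 to 0.0840 CPM in other stromal cells of the small intestine and at 50.0 and 77.2 CPM in those of the cecum and the large intestine, and Lrat at 98.1 to 401 CPM against 1.41 and 0.573 CPM. In the model with both states of all 6 libraries, the difference between large bowel and small intestine depended on the cycling state for 491 of 18592 genes (2.64%) by edgeR, with 332 interactions positive (1.79%) and 159 negative (0.855%). This split depended on the scaling, as the fitted interaction had a median of 0.17 over all genes with TMM factors and 0.02 with DESeq2's size factors, under which 48.0% rather than 67.6% of the calls were positive. limma-voom called 129, with 14.7% positive. The interaction involves the contrast that chose the cells, so no value is given for the 8 rule genes. A dependence on the cycling state cannot be told apart from a different mix of fibroblast types in cycling and other sums.

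Of the 20 genes with the largest regional differences given above, 3 had an interaction past the threshold, namely Adam23, Pitx1 and Ntm, and for the other 17 the test did not detect a dependence. Those of the 17 at 0 CPM in the cycling sums of a bowel had log2 SEs from 3.64 (Lrat) to 13.6 (Hoxa11os). For these genes the test could hardly have detected one. The value for Adam23, at 0 CPM in all small intestinal cycling sums, depends on the prior count. Pitx1 was at 6.49 to 19.7 CPM in other stromal cells of the small intestine and 195 and 180 CPM in those of the large bowel, and in the cycling cells the difference was larger (interaction log2 2.29 ± 0.48, SE, edgeR adjusted p = 0.000221). The interaction was called in 11 of 14 fits for Pitx1, not without distal replicate 1, by DESeq2 or by limma-voom, and in 10 of 14 fits for Adam23. For Ntm it was called in 10 of 13 alternatives, and it was −2.68 without the cecum (edgeR adjusted p = 0.375). Ccl11 (eotaxin) had an interaction of the opposite sign to that of Pitx1. In cycling cells it was at 588, 885, 538 and 707 CPM in the small intestine against 204 and 72.0 CPM in the large bowel, and in other cells at 335, 462, 449 and 415 CPM against 583 and 315 CPM. The interaction was −2.33 ± 0.21 (edgeR adjusted p = 1.07e-23), and it was called in all 14 fits.

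For telocyte genes the regional difference was smaller in cycling than in other stromal cells for 5 of 11 genes (Foxl1, Procr, Agt, Nrg1 and Wnt4) and larger for none, where 0.855% of all genes had a negative interaction past the threshold. In 3 of the 14 fits, 1 telocyte gene had a positive interaction. Nrg1 was at 161 ± 49.3 CPM in cycling small intestinal cells and 201 and 727 CPM in the large bowel, against 29.4 to 96.0 CPM and 335 and 787 CPM in other cells (interaction log2 −1.43 ± 0.22, SE, edgeR adjusted p = 4.05e-08). Foxl1 was at 0.665 to 3.84 CPM in other cells of the small intestine and 9.63 and 31.1 CPM in those of the large bowel (interaction −1.81 ± 0.52, edgeR adjusted p = 0.0254). The 5 interactions stayed negative in every fit. Their count was 5 with DESeq2's size factors, 1 with DESeq2, 1 without the large intestine and 0 with limma-voom. Of 6 trophocyte genes, Cd34, Cd81 and Ackr4 had positive interactions and none a negative one, where 1.79% of all genes had a positive one. Cd34 was called in 13 of 14 fits, Cd81 in 8 and Ackr4 in 5.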

How the data were processed

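The deposited matrices of UMI counts from 6 single-cell libraries were analysed, which the authors made with Cell Ranger 8.1.0 (8.0.1 in the matrix header) on mm39 with tdTomato added. The ambient correction and doublet removal of the authors (SoupX and DoubletFinder) are not in these counts. Barcodes were kept as cells if they had 1000 to 7500 genes, 2500 to 40000 UMIs and a mitochondrial share under 10%. Scrublet (scanpy 1.11.5) marked doublets, and none was removed from the values reported first. The members and gene lists were chosen with earlier results of these data known, and the members were selected on the counts of 8 genes.

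Hashtags are not paired with mice in the sources used here, so the library was the sample. Shares were compared with exact permutation tests over libraries (scipy 1.17.1). Counts were summed per library over the cycling, and over the other, stromal cells and tested with edgeR 4.0.16 (quasi-likelihood, TMM, filterByExpr with a minimum count of 10, Benjamini-Hochberg at 0.05, R 4.3.3), and the SE of a log2 difference is its size over the square root of the F statistic. In the comparisons of regions, all 6 libraries shared 1 estimate of the spread, with 4 group means, since cecum and large intestine had 1 library each. Their spread therefore came from the 2 pairs of small intestinal libraries. The comparison of large bowel with small intestine assumes that cecum and large intestine vary like these. It takes no account of how far they differ from each other. The interaction model instead held the library as a block, the state and the state by bowel. Its spread came from how the difference between states varied among libraries of the same bowel, cecum against large intestine included. Tested on simulated data in which 200 genes had a 4-fold change, edgeR recovered 73.5% for distal against proximal and 84.5% for large bowel against small intestine (9162 genes each) and 45.0% for the interaction (18592 genes), with 4.55%, 5.59% and 5.26% false calls. In the simulated region comparisons all libraries shared a profile apart from the changed genes. Their false calls therefore do not cover differences between cecum and large intestine.

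Cycling and other cells of a lineage were described by log2 ratios of CPM with 10 CPM added, in libraries with at least 10 cycling cells and for genes with at least 20 UMIs in both sums together. Lineages shared no cells, and cells meeting several definitions were left out. Genes named were the 8 of the rule, examples of each list, and up to 10 per direction with the largest change among called genes without overlap between libraries, or, for cycling against other cells, with the largest median ratio outside the cell cycle lists. Distances and letters of promoters came from RefSeq (GRCm38.p6). Alternatives were DESeq2 1.42.0, limma-voom 3.58.1, DESeq2's size factors, no filter, other thresholds of the rule, thinning to 2500 UMIs, doublet removal, 10% of free RNA subtracted, a replicate block and each library left out.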

Additional observations from a re-analysis of the deposited data

Results flagged for a closer look

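The edgeR interaction test called 491 of 18592 genes (2.64%) in stromal cells. For these the difference between large bowel and small intestine depended on the cycling state by this test. DESeq2 called 124 of 9941 genes and limma-voom 129. Cycling and other sums may hold different mixes of fibroblast types, which cannot be told apart from a dependence on the state. The 491 genes were flagged because their regional difference differed between groups of cells. The genes with the largest such differences, among those whose log ratios of cycling to other cells did not overlap between the libraries of both bowels, were the following, on the log2 scale. Positive values, meaning a difference further toward the large bowel in cycling cells, were 11.26 for Cpz, 11.11 for Sbsn, 5.70 for Cldn5, 4.95 for Pnp2, 4.39 for Pln, 4.16 for Kirrel3, 3.59 for Hhip, 3.42 for Dpf1, 3.38 for Pdgfc and 3.33 for Abcb1b. Cpz and Sbsn had 0 UMIs in the cycling cells of the small intestine, so their values depend on the prior count. In the same cells Cldn5, Pnp2 and Pln had 1 UMI each, and Kirrel3, Dpf1 and Abcb1b 3 each. The sizes of their values are therefore uncertain. Cpz was called in 3 of 12 alternatives, Sbsn in 1 of 12, Pln in 5 of 12, Dpf1 in 7 of 12, Cldn5 in 8 of 11 and Abcb1b in 9 of 12. Few cells carried some of these values. For Cldn5 all 23 UMIs of the large intestine lay in 1 cell, for Pln all 10 UMIs of the cecum did, and for Pdgfc 21 of 29 UMIs of the large intestine did.

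Hhip, an inhibitor of hedgehog ligands, was at 7.05, 5.15, 0 and 10.6 CPM in cycling cells of the small intestine and at 19.1 and 48.4 CPM in those of the cecum and the large intestine. In other stromal cells Hhip was at 94.4, 87.2, 18.0 and 89.6 CPM against 32.0 and 48.7 CPM.

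Negative values were −5.33 for Vtn, −3.99 for Colec10, −3.87 for Ntm, −3.28 for Plscr2, −2.68 for Kif23, −2.37 for Has2, −2.36 for Tnfrsf21, −2.33 for Ccl11, −2.07 for Eya1 and −2.01 for 9630014M24Rik. Vtn was at 9.41, 0, 0 and 34.3 CPM in cycling cells of the small intestine against 2.24 and 0 CPM. Its 17 small intestinal UMIs lay in 4 cells, 8 of 13 in 1 cell of distal replicate 2, and without that library it was not called (edgeR adjusted p = 0.0858). Vtn was called in 9 of 12 alternatives, Ntm in 10 of 13, Plscr2 in 9 of 12 and Eya1 in 6 of 13, and for Ntm 12 of 15 UMIs of distal replicate 2 lay in 1 cell. Kif23 is a cell cycle gene, and the rule keeps cells with 4 or more of the 8 mitotic genes out of the other cells. Its interaction is therefore bound up with how the cells were chosen and is no test of a regional effect. Kif23 was at 0.198 to 0.339 CPM in other stromal cells of the small intestine and 0.677 and 1.24 CPM in those of the cecum and the large intestine. Tnfrsf21, a death receptor, was at 87.0, 61.8, 93.7 and 79.1 CPM in cycling cells of the small intestine against 4.49 and 5.90 CPM, and at 28.5, 19.6, 15.3 and 38.8 CPM against 9.43 and 9.31 CPM in other cells.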

How the results depend on the processing

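The stromal share stayed higher in the large bowel than in the small intestine under each alternative. Other differences of shares changed direction. The epithelial difference between bowels was −0.323 points with at least 5 of the 8 genes and −1.05 after thinning, and the immune difference of distal minus proximal was −0.616 after thinning. Leaving out 1 library moved the lymphatic difference between bowels from −0.102 (without the large intestine) to 0.617 and the immune one from −0.565 (without the cecum) to 2.82. Distal minus proximal then ran from −0.138 to 0.489 in lymphatic and from −0.0535 to 2.70 in immune cells. The S over G2/M balance of stromal minus immune cells was 0.19 with at least 5 genes and −0.56 to 0.16 on leaving out a library, and that of stromal minus lymphatic cells −0.067 to 0.40. The difference in several hashtags of lymphatic cells was 0.525 with at least 5 genes and −5.92 to 2.19. Stromal shares were below lymphatic and immune ones by more than the threshold after thinning (−0.318 and −1.88) and with at least 2 UMIs for a lineage (−0.428 and −3.81).

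Counts of calls moved most. Distal against proximal gave 57 without a filter, 5 with at least 3 genes, 6 without Scrublet doublets and 0 (without proximal replicate 2) to 52 (without distal replicate 2). Large bowel against small intestine gave 242 with DESeq2, 503 with free RNA subtracted, 232 within 1 hashtag set (an alternative chosen after seeing the data) and 214 (without proximal replicate 2) to 1099 (without distal replicate 1). The interaction gave 124 with DESeq2, 129 with limma-voom and 202 (without the large intestine) to 521. The cause was not tested. Genes lower in cycling stromal cells numbered 50 to 115, the latter without the large intestine, and those lower in lymphatic cells 132 against other cells matched on UMIs. Of the values under alternatives of the genes named for the largest changes, 460 kept their call, 77 lost it and 0 changed sign. Named members of lists are not among these, and Ackr4, which was not called between bowels, ran from −0.59 to 0.76.

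No label says that replicate numbers pair the samples, although each number went with 1 set of hashtags in both small intestinal regions, so a batch shared by number was not excluded. Same-numbered proximal and distal libraries deviated with a correlation of −0.108 over 7283 genes. With the replicate block 2 genes were called between distal and proximal cells, and the share differences under the pairing were 0.0544 for stromal, 0.175 for lymphatic, 1.32 for immune and −7.92 points for epithelial cells. With the crossed pairing, chosen after seeing the data, 7 genes were called.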
